A study of Mus musculus with 8 samples.

Results

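Cells sense bacterial lipopolysaccharide (LPS) through TLR4, and 10 genes that carry the signal from this receptor to the ubiquitin ligase TRAF6 were followed here. They were listed by name, for their place in the pathway and not by a threshold on measured values, although earlier results of these data were known when the list was made. They are the co-receptor gene Ly96, the adaptor genes Tirap, Myd88, Ticam2 and Ticam1, the kinase genes Irak4, Irak1, Irak2 and Irak3, and Traf6. All 10 were found among the 47937 gene IDs of the count tables, and all 10 had enough reads to be tested in every comparison. RNA was sequenced from bone marrow-derived dendritic cells (BMDCs), which are grown from mouse bone marrow in GM-CSF medium. Cultures of this kind are a mixture of dendritic and macrophage-like cells, and they were left unstimulated or received 20 ng/ml LPS for 24 h. The 4 groups, unstimulated WT, unstimulated 3xGrk-/-, LPS-stimulated WT and LPS-stimulated 3xGrk-/-, had 2 libraries each. The bone marrow came from adult mice on a C57BL6/J background.

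The 3xGrk-/- cells carried Vav-iCre, Grk2 fl/fl, Grk3-/- and Grk6 fl/fl. The Cre is expressed from early hematopoietic precursors onwards, whereas the Grk3 allele was inactive in the whole animal. WT controls had no Cre. GRKs are kinases that phosphorylate activated G protein-coupled receptors, and the study asked how dendritic cells develop and behave without them. No source used here says that the libraries of a group came from separate cultures or animals, and the study's methods speak of technical triplicates, whereas 2 libraries per group were analysed here. The p-values below therefore measure the spread between these libraries, which may be technical.

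The libraries held 4713305 to 6933358 reads on genes, of which 0.0618% to 0.0698% lay on the 10 genes. Transcripts of the targeted kinases were still counted in 3xGrk-/- libraries. Relative to WT, Grk2 stood at 46.4% without and 27.0% with LPS, Grk6 at 43.9% and 34.4%, and Grk3 at 78.1% and 75.0%. Counts over a whole gene include any part that a deletion leaves, so they check the genotype labels only by their direction. At the protein level, the paper's immunoblots of such BMDCs showed these kinases to be almost completely lost. The markers of the cell types in the culture moved with the genotype. The summed level of 10 conventional dendritic cell markers, in TMM-scaled CPM, which are read counts set to a common library size, was 21542 to 21757 in unstimulated WT and 11063 to 11289 in unstimulated 3xGrk-/- libraries, and 15099 to 16500 against 12783 to 13022 with LPS. The antigen presentation genes Cd74, H2-Aa and H2-Ab1 make up most of this sum. At an adjusted p of 0.05, 2 of the 10 dendritic cell markers were higher and 6 lower in 3xGrk-/- cells without LPS (22.1% and 22.7% of all genes tested), and 1 was higher and 8 lower with LPS (24.7% and 24%). Flt3, a receptor of dendritic cell precursors, was higher in both conditions (0.95 and 1.35). Ccr7, the other marker called higher without LPS (0.24), was called lower with LPS (−0.32). The sum of 10 monocyte and macrophage markers was 1018 to 1045 CPM against 1500 to 1555 CPM without LPS, and 407 to 413 CPM against 2787 to 2847 CPM with LPS. All 10 of these markers passed an adjusted p of 0.05 as higher in LPS-stimulated 3xGrk-/- cells (24.7% of all genes), while 5 were higher and 4 lower without LPS (22.1% and 22.7%). The sum of 7 eosinophil markers was 1148 to 1329 CPM in WT libraries and 66.5 to 88.7 CPM in 3xGrk-/- libraries, and that of 8 neutrophil markers was 258 to 644 CPM and 137 to 439 CPM. No marker of these 4 lists was at 0 in all libraries. Mast cell and basophil markers summed to 32.9 to 52.1 CPM and stromal markers to 1.53 to 17.7 CPM, with the highest stromal sums in LPS-stimulated 3xGrk-/- libraries. Lymphocyte markers summed to at most 1.15 CPM and erythroid markers to at most 0.382 CPM. In such bulk samples, fewer cells of a type and less RNA per cell cannot be told apart from read counts alone. By flow cytometry, the paper reports a smaller share of dendritic cells and more macrophage-like cells in such knockout cultures, unstimulated and stimulated. The fall in dendritic cells after stimulation was not significant in its test. The paper also reports lower levels of some maturation markers on the dendritic cells that remained. The part of the cell types named above in the results below was not tested.

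TLR4 binds LPS together with MD-2, the protein product of Ly96, after CD14 has handed the LPS over. At the plasma membrane TIRAP brings in MyD88, whereas at endosomes TRAM (from Ticam2) brings in TRIF (from Ticam1), which leads to type I interferon. MyD88 assembles IRAK4 with IRAK1 and IRAK2, and these recruit TRAF6, whose ubiquitin chains activate TAK1 and the IKK complex. IRAK-M, the product of Irak3, joins the same complex, has little kinase activity and is known as a brake on TLR signaling in macrophages.

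RefSeq promoters of the GRCm38.p6 build were at hand for 8 of the 10 genes, with 11 annotated starts, and not for Ly96 and Ticam2. They were searched on both strands, from 250 bases before to 50 bases after the start, for 3 motifs of factors that act after TLR4. These were a kB-like motif (GGGA and TTCC with any 2 bases between them), an ISRE-like motif (GAAA and GAAA with any 2 bases between them) and the CRE (TGACGTCA). Of all 32851 promoters of the table, 1.47%, 3.44% and 1.79% held these motifs. The only match among the members was 1 ISRE-like motif of Myd88, whose first base lay 40 bases before the start. A match is a description of the letters and no proof of a site, and the lack of one says only that these letters do not occur in the window. Below are the 250 bases before the start of Myd88, shown for this match, and those of Irak3 and Traf6, the genes with the widest and the most opposed differences between the genotypes. Each is printed 5′ to 3′ on the strand of the gene, and capitals mark the ISRE-like match. Their positions in GRCm38.p6 are chr9:119340019-119340268 (minus strand) for Myd88, chr10:120202131-120202380 and chr10:120201598-120201847 (minus strand) for the distal and the proximal start of Irak3, and chr2:101678170-101678419 (plus strand) for Traf6. The read counts are sums over a gene and do not show which start was used.
Myd88: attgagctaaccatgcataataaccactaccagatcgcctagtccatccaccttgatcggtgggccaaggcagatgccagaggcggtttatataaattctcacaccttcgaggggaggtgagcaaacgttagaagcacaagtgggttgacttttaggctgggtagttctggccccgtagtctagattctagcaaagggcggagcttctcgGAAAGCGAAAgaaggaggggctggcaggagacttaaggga
Irak3, distal start: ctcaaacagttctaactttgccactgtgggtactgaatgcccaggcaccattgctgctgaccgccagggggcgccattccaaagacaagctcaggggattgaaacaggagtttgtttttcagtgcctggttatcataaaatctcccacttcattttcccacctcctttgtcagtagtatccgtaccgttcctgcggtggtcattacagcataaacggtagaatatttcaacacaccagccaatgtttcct
Irak3, proximal start: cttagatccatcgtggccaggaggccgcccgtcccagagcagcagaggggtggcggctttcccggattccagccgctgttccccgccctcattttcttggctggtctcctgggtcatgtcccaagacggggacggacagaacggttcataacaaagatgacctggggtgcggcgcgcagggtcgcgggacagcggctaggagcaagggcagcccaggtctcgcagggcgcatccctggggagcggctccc
Traf6: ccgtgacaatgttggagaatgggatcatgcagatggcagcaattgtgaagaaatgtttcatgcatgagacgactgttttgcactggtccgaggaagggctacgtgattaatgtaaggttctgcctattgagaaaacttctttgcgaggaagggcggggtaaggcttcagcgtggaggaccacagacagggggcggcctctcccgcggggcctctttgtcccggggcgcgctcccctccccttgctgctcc

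To compare genes with each other, counts were divided by the length of the exons of each gene (RPKM). Myd88 was the most abundant of the 10 transcripts in each of the 4 groups, with means of 42.5 RPKM in unstimulated WT, 38.1 in unstimulated 3xGrk-/-, 35.1 in LPS-stimulated WT and 39.8 in LPS-stimulated 3xGrk-/- cells. Ticam2 had the lowest RPKM in each group, with 3.28, 1.98, 2.48 and 2.32 in the same order. In unstimulated WT, where Tirap was close (3.54), this rank is uncertain. The reason is that 14.5% of the exon bases of Ticam2 are shared with another gene on the same strand. Between Myd88 and Ticam2 the order changed with LPS and with the genotype. In unstimulated WT cells Myd88 was followed by Irak1 (25.3 RPKM), Irak2 (18.4), Traf6 (16.4), Ticam1 (10.03), Ly96 (9.41), Irak4 (8.71), Irak3 (4.64) and Tirap (3.54). The libraries of Ticam1 and Ly96 overlapped, whereas all other neighbours in this order were separated by more than their spread. In LPS-stimulated WT cells Traf6 (30.9 RPKM) and Ly96 (22.4) stood directly after Myd88, Irak3 ranked 7 with 8.78 RPKM, and no neighbours overlapped. Irak3 ranked 6 in unstimulated 3xGrk-/- cells with 8.88 RPKM, where it overlapped with Irak4 (8.63), as did Irak4 with Ticam1 (8.47). In LPS-stimulated 3xGrk-/- cells Irak3 came directly after Myd88 with 29.6 RPKM, ahead of Irak2 (28.1), Ly96 (25.0), Traf6 (24.1), Irak1 (19.6), Ticam1 (14.4), Tirap (6.19) and Irak4 (5.64). Here Ly96 overlapped with Traf6, and Tirap with Irak4.

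**Figure D1:**
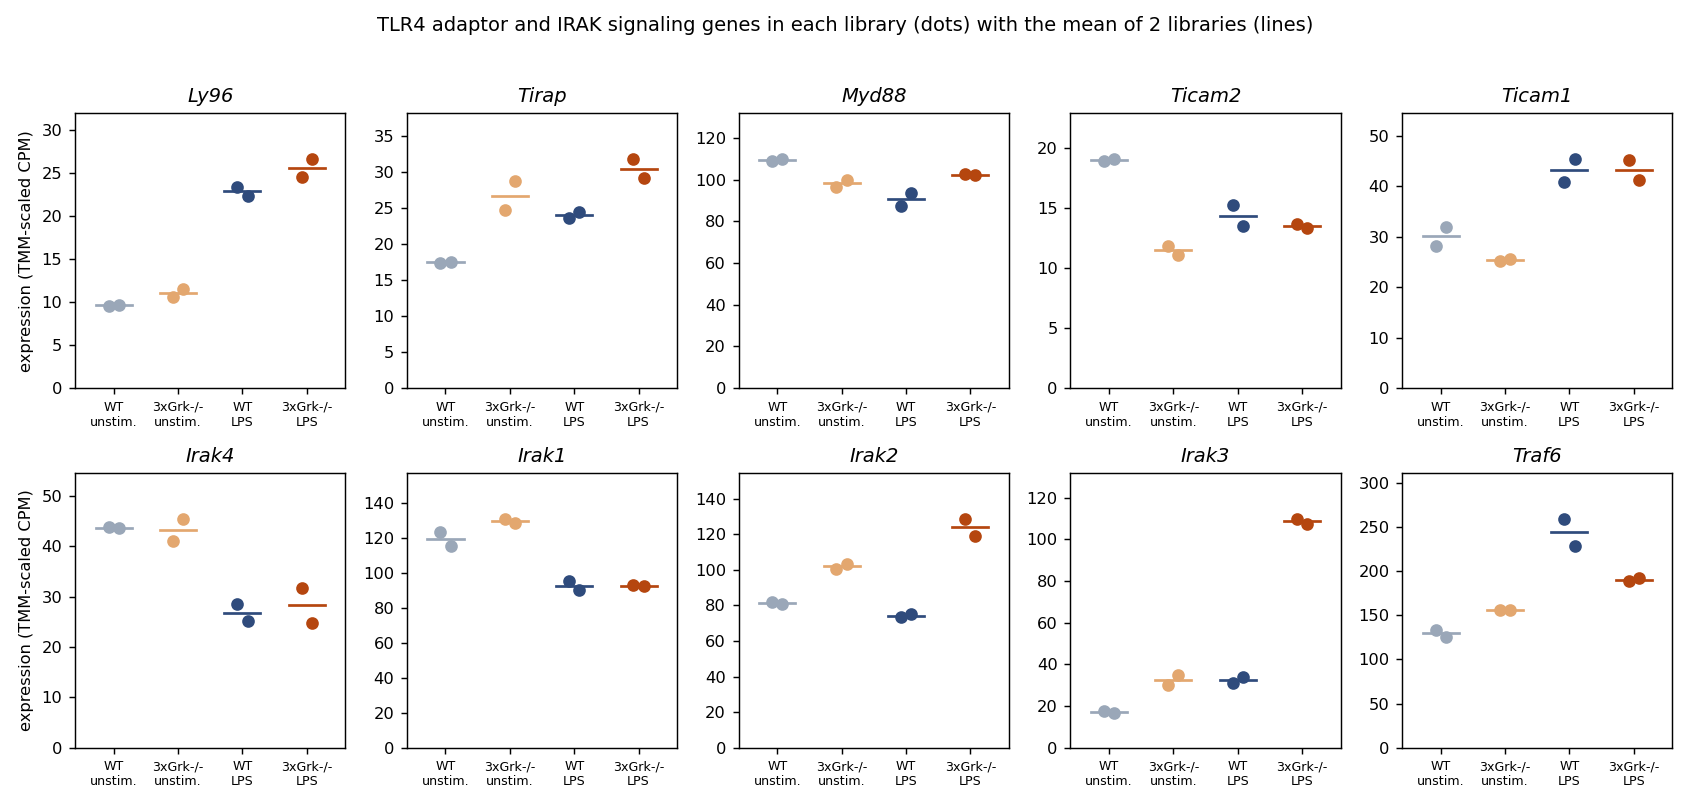
Expression of the 10 genes in each library, in CPM, with 1 panel per gene and 1 column per group; points are libraries and lines the mean of 2. Irak3 reaches 108 to 110 CPM in the LPS-stimulated 3xGrk-/- libraries and stays at or below 35.1 CPM in all others, while Traf6 is highest in the LPS-stimulated WT libraries.

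First, it was asked whether these genes differed between WT and 3xGrk-/- cells before and after LPS. In the following, "called" means an adjusted p under 0.05, where p comes from the quasi-likelihood test of edgeR and is adjusted over the whole table after Benjamini and Hochberg (edgeR adjusted p), and differences are log2 fold changes of 3xGrk-/- over WT. Without LPS, 6 of the 10 genes were called (44.7% of all 12000 genes tested), 4 of them higher (22.1% of all genes) and 2 lower (22.7%). With LPS, 4 of the 10 were called (48.6% of 11830 genes), 3 higher (24.7%) and 1 lower (24%). The genes called higher were Tirap, Irak2, Irak3 and Traf6 without LPS, and Tirap, Irak2 and Irak3 with LPS. The genes called lower were Myd88 and Ticam2 without LPS, and Traf6 with LPS. A difference of at least 1 on the log2 scale was reached by none without LPS (12% of all genes) and by Irak3 alone with LPS (16.8%). The libraries of the genotypes did not overlap for 9 of the 10 genes without LPS (69.1% of all genes) and for 6 of the 10 with LPS (72.6%). The median difference of the 10 genes was 0.16 without LPS and 0.12 with LPS, beside −0.00 and −0.01 over all genes tested. Regardless of direction, the median size was 0.27 against 0.24 over all genes without LPS, and 0.17 against 0.33 with LPS. Thus, the share of the 10 genes that was called did not stand far from that of all genes, and the genes are described one by one below. If the spread between libraries was set to a biological coefficient of variation of 0.4, in place of the 0.0306 without and 0.0573 with LPS that the libraries gave, none of the 10 genes was called in any comparison. This setting also used edgeR's likelihood ratio test in place of the quasi-likelihood test, and it left few genes in all. For the genotype it called 3.73% without and 6.61% with LPS. For the response to LPS it called 8.85% in WT and 6.78% in 3xGrk-/- cells, and for the interaction 0.574%. Scaling by library totals alone moved the median genotype difference of all genes by −0.08 without and −0.09 with LPS. Where a value without 1 library is given below, the other library of that group stands alone and is assumed to vary like the libraries of the other groups in the fit.

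**Figure D2:**
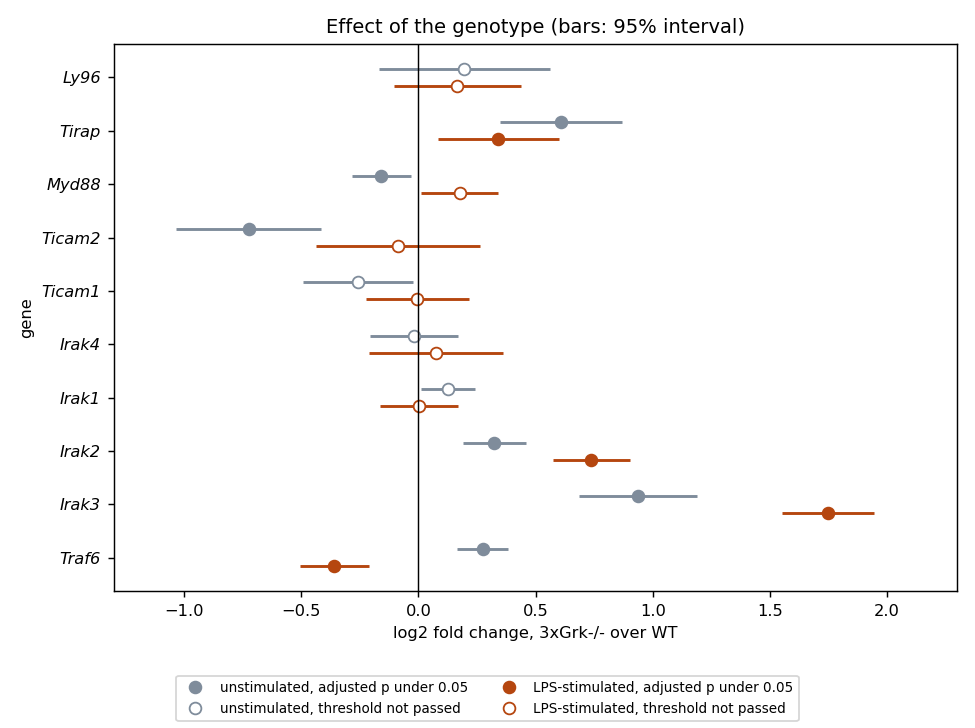
Difference between the genotypes for each of the 10 genes, as log2 fold change of 3xGrk-/- over WT, without LPS (grey) and with LPS (orange); points are estimates from edgeR, bars 95% intervals, and filled points passed an adjusted p of 0.05. Irak3 lies farthest to the right in both conditions, and Traf6 lies above 0 without and below 0 with LPS.

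Irak3 (ENSMUSG00000020227; chromosome 10, 120141648 to 120202130 of GRCm38, minus strand) encodes the inhibitory IRAK-M. The authors' tables give it 92 and 118 reads in unstimulated WT, 202 and 202 in unstimulated 3xGrk-/-, 170 and 218 in LPS-stimulated WT, and 605 and 664 in LPS-stimulated 3xGrk-/- libraries. Scaled to library size, these were 17.6 and 16.5 CPM, 30.2 and 35.1 CPM, 30.8 and 33.7 CPM, and 110.0 and 107.7 CPM. The genotypes did not overlap in either condition, and the level of unstimulated 3xGrk-/- libraries fell into the same range as that of LPS-stimulated WT libraries. Irak3 was higher in 3xGrk-/- than in WT cells by 0.94 (SE 0.128, edgeR adjusted p = 2.62e-12) without LPS and by 1.75 (SE 0.0940, edgeR adjusted p = 1.56e-12) with LPS, which is 191% and 336% of WT. LPS raised it by 0.93 in WT (SE 0.124, edgeR adjusted p = 2.48e-07) and by 1.74 in 3xGrk-/- cells (SE 0.0913, edgeR adjusted p = 1.10e-15). The interaction of genotype and LPS, the difference between these responses, was 0.81 (SE 0.159, edgeR adjusted p = 0.000182). Exons of Irak3 share 5.98% of their bases with genes on the opposite strand, Gm47009 and Tmbim4. Tmbim4 was itself lower in 3xGrk-/- cells without LPS (−0.30) and higher with LPS (0.81). The library kit keeps strand, but the strand setting of the counting is not given in the sources used here, and the part of the shared bases was not tested.

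Irak2, a kinase that sustains late TLR signaling, showed the same direction at a smaller size. It had 82.0 and 80.7 CPM in unstimulated WT, 100.4 and 103.3 in unstimulated 3xGrk-/-, 73.3 and 75.0 in LPS-stimulated WT, and 128.7 and 119.2 in LPS-stimulated 3xGrk-/- libraries. Both 3xGrk-/- groups lay above both WT groups, with no overlap. The difference between the genotypes was 0.32 (SE 0.0678, edgeR adjusted p = 8.08e-06) without LPS and 0.74 (SE 0.0792, edgeR adjusted p = 1.01e-07) with LPS. The response to LPS was −0.13 in WT and missed the threshold (SE 0.0748, edgeR adjusted p = 0.133), whereas Irak2 rose by 0.28 in 3xGrk-/- cells (SE 0.0681, edgeR adjusted p = 0.000887). The interaction was called at 0.41 (SE 0.101, edgeR adjusted p = 0.00196). With libraries scaled by their total alone, a fall in WT was called (−0.35, edgeR adjusted p = 0.000275). The rise in 3xGrk-/- cells was then no longer called (0.06, edgeR adjusted p = 0.443). This scaling moved the median LPS response of all genes by −0.21 in WT and −0.22 in 3xGrk-/- cells. Irak2 lies on chromosome 6, 113638467 to 113695026 of GRCm38, and shares 4.44% of its exon bases with Gm43963 on the opposite strand.

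The kinases that start the cascade differed little between the genotypes. Irak4, the first kinase to bind MyD88, had 43.75 and 43.73 CPM in unstimulated WT, 41.1 and 45.5 in unstimulated 3xGrk-/-, 28.5 and 25.2 in LPS-stimulated WT, and 31.8 and 24.8 in LPS-stimulated 3xGrk-/- libraries. The genotypes overlapped in both conditions, and the stimulated libraries lay below all unstimulated ones. The difference between the genotypes was −0.02 (95% interval −0.21 to 0.17) without LPS and 0.07 (−0.21 to 0.36) with LPS. LPS lowered Irak4 by a log2 fold change of −0.71 in WT (SE 0.117, edgeR adjusted p = 7.02e-06) and −0.62 in 3xGrk-/- cells (SE 0.117, edgeR adjusted p = 5.35e-05). Irak1, the kinase that IRAK4 phosphorylates, had 123 and 115 CPM in unstimulated WT, 131 and 128 in unstimulated 3xGrk-/-, 95.1 and 89.9 in LPS-stimulated WT, and 92.9 and 92.3 in LPS-stimulated 3xGrk-/- libraries. Here too the stimulated libraries lay below the unstimulated ones in both genotypes. The difference between the genotypes was 0.12 (0.01 to 0.24, edgeR adjusted p = 0.0715) without LPS and 0.00 (−0.16 to 0.17) with LPS, and without replicate 1 of unstimulated WT the first of these was called (edgeR adjusted p = 0.0450). Irak1 fell by 0.37 with LPS in WT (SE 0.0690, edgeR adjusted p = 4.51e-05) and by 0.49 in 3xGrk-/- cells (SE 0.0684, edgeR adjusted p = 7.21e-07). Over all alternatives the response of Irak1 ranged from −0.58 to −0.32 in WT and from −0.70 to −0.47 in 3xGrk-/- cells. The interaction was not called for either kinase, with 0.09 for Irak4 (−0.25 to 0.43) and −0.12 for Irak1 (−0.32 to 0.08). In GRCm38, Irak4 lies on chromosome 15, 94543643 to 94581815, and Irak1 on chromosome X, 74013914 to 74023918. Irak4 shares 7.87% of its exon bases with Twf1 on the opposite strand, and Irak1 2.99% with the microRNA genes Mir5132 and Mir718 on the same strand. Twf1 was higher in 3xGrk-/- cells in both conditions (0.51 and 0.36), and its part in the counts of Irak4 was not tested.

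On the RPKM scale, the make-up of the IRAK transcripts can be given per library. Irak3 made up 8.22% and 8.04% of the summed RPKM of the 4 IRAK genes in unstimulated WT, 12.3% and 13.8% in unstimulated 3xGrk-/-, 16.5% and 18.3% in LPS-stimulated WT, and 35.1% and 36.2% in LPS-stimulated 3xGrk-/- libraries. The share of Irak1 stood at 44.9% and 43.7%, 41.5% and 39.3%, 39.7% and 37.9%, and 23.1% and 24.2% in the same order, and that of Irak4 at 15.0% and 15.6%, 12.2% and 13.1%, 11.2% and 9.99%, and 7.44% and 6.11%. Irak2 stayed between 31.9% and 34.3% in all libraries. Hence the transcript of the inhibitory member was the smallest of the 4 shares in unstimulated WT libraries and the largest in LPS-stimulated 3xGrk-/- libraries. The ratio of Irak3 to Irak4 was 0.549 and 0.517 in unstimulated WT, 1.003 and 1.05 in unstimulated 3xGrk-/-, 1.48 and 1.83 in LPS-stimulated WT, and 4.72 and 5.93 in LPS-stimulated 3xGrk-/- libraries. The summed RPKM of the 4 genes was 58.2 and 56.0, 66.9 and 69.2, 50.8 and 50.3, and 85.1 and 80.8 in the same order. These shares are descriptions of RNA, not of protein, and were not tested.

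**Figure D3:**
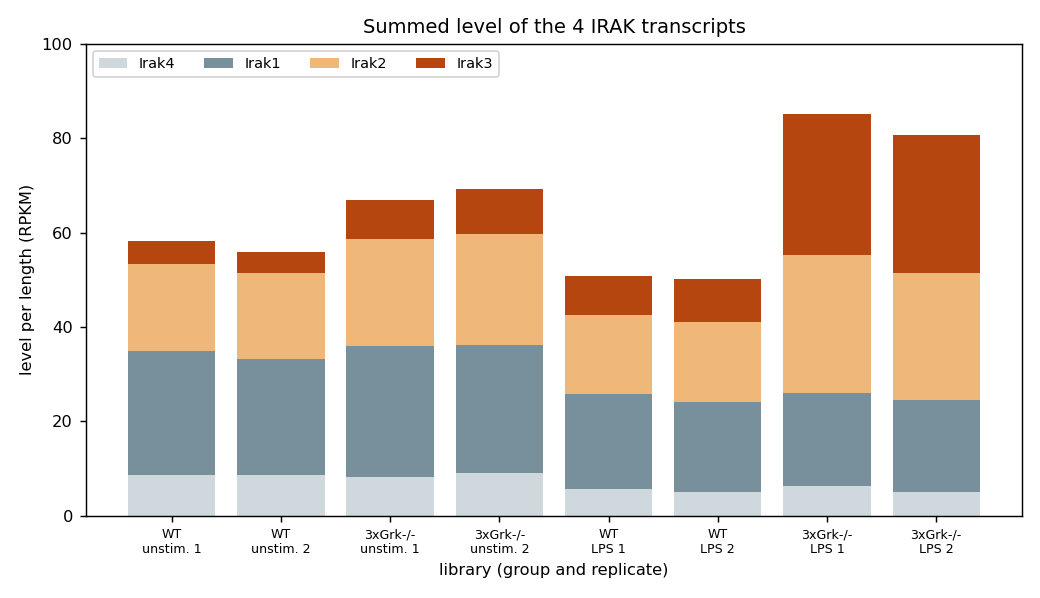
RPKM of Irak4, Irak1, Irak2 and Irak3, as 1 stacked bar per library that starts at 0. The part of the bar taken by Irak3 widens from 8.04% to 8.22% in unstimulated WT to 35.1% to 36.2% in LPS-stimulated 3xGrk-/- libraries, while that of Irak2 stays between 31.9% and 34.3%.

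Traf6 (ENSMUSG00000027164; chromosome 2, 101678429 to 101701669 of GRCm38, plus strand) differed between the genotypes in opposite directions before and after LPS. It had 133.5 and 125.0 CPM in unstimulated WT, 156 and 155 in unstimulated 3xGrk-/-, 259 and 228 in LPS-stimulated WT, and 188 and 191 in LPS-stimulated 3xGrk-/- libraries. Both unstimulated 3xGrk-/- libraries lay above WT and both LPS-stimulated 3xGrk-/- libraries below WT. The difference was 0.27 (SE 0.0557, edgeR adjusted p = 4.27e-06) without LPS and −0.36 (SE 0.0706, edgeR adjusted p = 0.000236) with LPS. LPS raised Traf6 by 0.91 in WT (SE 0.0633, edgeR adjusted p = 4.84e-13) and by 0.29 in 3xGrk-/- cells (SE 0.0632, edgeR adjusted p = 0.000367). The interaction was −0.63 (SE 0.0895, edgeR adjusted p = 2.11e-06). No other annotated gene shares exon bases with Traf6. Scaled by library totals alone, the rise in 3xGrk-/- cells was 0.07 and was not called (edgeR adjusted p = 0.388).

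The sorting adaptors that bind TLR4 first moved apart from each other in unstimulated 3xGrk-/- cells. Tirap, which leads to MyD88, had 17.4 and 17.5 CPM in unstimulated WT, 24.7 and 28.8 in unstimulated 3xGrk-/-, 23.6 and 24.4 in LPS-stimulated WT, and 31.8 and 29.2 in LPS-stimulated 3xGrk-/- libraries. The genotypes did not overlap in either condition. Tirap was higher in 3xGrk-/- cells by 0.61 (SE 0.133, edgeR adjusted p = 2.17e-05) without LPS and by 0.34 (SE 0.123, edgeR adjusted p = 0.0274) with LPS. The second call was lost without replicate 1 of LPS-stimulated WT (edgeR adjusted p = 0.0580), without replicate 1 of LPS-stimulated 3xGrk-/- (0.29, edgeR adjusted p = 0.176), with library totals alone (0.25, edgeR adjusted p = 0.0995) and in DESeq2 (0.36, adjusted p = 0.272). LPS raised Tirap by 0.46 in WT (SE 0.133, edgeR adjusted p = 0.00377), which was not called in DESeq2 (adjusted p = 0.0660) or with library totals alone (0.25, edgeR adjusted p = 0.111). In 3xGrk-/- cells the response of Tirap was 0.19 (95% interval −0.05 to 0.43, edgeR adjusted p = 0.166), and the interaction was −0.27 (−0.63 to 0.09). Tirap lies on chromosome 9, 35184551 to 35200291 of GRCm38, and shares 9.84% of its exon bases with Srpr and Gm39318 on the opposite strand. Srpr was itself higher in 3xGrk-/- cells (0.43 without and 0.32 with LPS). It also rose with LPS in WT (0.54) and in 3xGrk-/- cells (0.42), where the response of Tirap was not called. The part of the shared bases was not tested.

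Ticam2, whose product TRAM leads to TRIF, had 18.9 and 19.1 CPM in unstimulated WT, 11.8 and 11.1 in unstimulated 3xGrk-/-, 15.2 and 13.5 in LPS-stimulated WT, and 13.6 and 13.3 in LPS-stimulated 3xGrk-/- libraries. The unstimulated WT libraries were the highest and the unstimulated 3xGrk-/- libraries the lowest, and the genotypes overlapped with LPS. Ticam2 was lower in unstimulated 3xGrk-/- cells by a log2 fold change of −0.72 (SE 0.158, edgeR adjusted p = 2.08e-05), or 60.5% of WT, which narrowly missed the threshold in DESeq2 (adjusted p = 0.0519). With LPS the difference was −0.09 (95% interval −0.44 to 0.26). LPS changed Ticam2 by −0.41 in WT (SE 0.144, edgeR adjusted p = 0.0153), a call that was lost in DESeq2 (adjusted p = 0.223) and without replicate 2 of unstimulated (edgeR adjusted p = 0.0740) or of LPS-stimulated WT (−0.31, edgeR adjusted p = 0.141). The response of 3xGrk-/- cells was 0.23 (−0.11 to 0.56). The interaction of 0.64 (SE 0.217, edgeR adjusted p = 0.0239) was not called in DESeq2 (adjusted p = 0.286). It stayed between 0.54 and 0.72 in all alternatives, but was also not called without replicate 2 of unstimulated WT (edgeR adjusted p = 0.0570), replicate 2 of unstimulated 3xGrk-/- (0.0736), replicate 2 of LPS-stimulated WT (0.0860), and replicate 1 (0.0641) or 2 (0.0548) of LPS-stimulated 3xGrk-/-. The gene had 64 to 136 reads per library, and 14.5% of its exon bases are shared with Tmed7 on the same strand, which read counts cannot assign to one gene. Tmed7 was lower in unstimulated 3xGrk-/- cells too (−0.17). The RPKM ratio of Tirap to Ticam2 was 1.08 in both unstimulated WT libraries, 2.45 and 3.05 in unstimulated 3xGrk-/-, 1.82 and 2.13 in LPS-stimulated WT, and 2.74 and 2.58 in LPS-stimulated 3xGrk-/- libraries.

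The signaling adaptors Myd88 and Ticam1 differed by less. Myd88 had 109.1 and 109.9 CPM in unstimulated WT, 96.5 and 100.02 in unstimulated 3xGrk-/-, 87.5 and 93.6 in LPS-stimulated WT, and 102.7 and 102.1 in LPS-stimulated 3xGrk-/- libraries. The genotypes did not overlap in either condition, with 3xGrk-/- below WT without LPS and above it with LPS. The difference was −0.16 (SE 0.0635, edgeR adjusted p = 0.0305) without LPS and 0.18 (SE 0.0782, edgeR adjusted p = 0.0695) with LPS. The first call was lost in DESeq2 (adjusted p = 0.453), without the filter on low counts (edgeR adjusted p = 0.119), in a fit of all 8 libraries (edgeR adjusted p = 0.0709) and without any 1 of the 4 libraries (edgeR adjusted p between 0.0608 and 0.229). The second was called in the fit of all 8 libraries (edgeR adjusted p = 0.0396) and without replicate 2 of LPS-stimulated WT (0.24, edgeR adjusted p = 0.0148). Myd88 was lowered by LPS in WT, with −0.27 (SE 0.0694, edgeR adjusted p = 0.00130), and stood at 0.06 in 3xGrk-/- cells (95% interval −0.08 to 0.20). Over all alternatives these responses ranged from −0.49 to −0.22 in WT and from −0.16 to 0.09 in 3xGrk-/- cells. The interaction of 0.33 (SE 0.0981, edgeR adjusted p = 0.00927) was not called in DESeq2 (adjusted p = 0.117) or without replicate 1 of unstimulated 3xGrk-/- (edgeR adjusted p = 0.0515). Exons of Myd88 share 11.3% of their bases with Acaa1a on the opposite strand, which was higher in 3xGrk-/- cells without LPS (0.36) and stood at 0.06 with LPS. The gene lies on chromosome 9, 119335934 to 119341411 of GRCm38.

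Ticam1, the gene of TRIF, had 28.1 and 32.0 CPM in unstimulated WT, 25.1 and 25.5 in unstimulated 3xGrk-/-, 40.8 and 45.3 in LPS-stimulated WT, and 45.1 and 41.2 in LPS-stimulated 3xGrk-/- libraries. All stimulated libraries lay above all unstimulated ones, and with LPS the genotypes overlapped. It rose with LPS by 0.51 in WT (SE 0.108, edgeR adjusted p = 0.000167) and by 0.77 in 3xGrk-/- cells (SE 0.112, edgeR adjusted p = 1.28e-06), and the interaction was 0.25 (−0.07 to 0.57, edgeR adjusted p = 0.240). Over all alternatives the rise ranged from 0.30 to 0.62 in WT and from 0.55 to 0.84 in 3xGrk-/- cells. Between the genotypes the difference was −0.26 without LPS (SE 0.119, edgeR adjusted p = 0.0641) and −0.00 with LPS (−0.22 to 0.22). The first was called with library totals alone (−0.34, edgeR adjusted p = 0.0105), a scaling that moved all genes by about as much (median −0.08), and without replicate 1 of unstimulated WT (−0.34, edgeR adjusted p = 0.0352). The RPKM ratio of Myd88 to Ticam1 was 3.99 to 4.55 in the unstimulated and 2.40 to 2.88 in the stimulated libraries. Ticam1 lies on chromosome 17, 56269319 to 56276786 of GRCm38, and no other annotated gene shares its exon bases.

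Ly96, whose product MD-2 holds LPS on TLR4, had 9.55 and 9.67 CPM in unstimulated WT, 10.6 and 11.5 in unstimulated 3xGrk-/-, 23.4 and 22.3 in LPS-stimulated WT, and 24.5 and 26.6 in LPS-stimulated 3xGrk-/- libraries. It rose with LPS in both genotypes, by 1.24 in WT (SE 0.1496, edgeR adjusted p = 3.67e-08) and by 1.22 in 3xGrk-/- cells (SE 0.142, edgeR adjusted p = 2.69e-08). The difference between these responses was −0.03 (95% interval −0.47 to 0.41). Between the genotypes, the 3xGrk-/- libraries lay above WT in both conditions, but the differences of 0.19 (−0.17 to 0.56) without LPS and 0.17 (−0.11 to 0.44) with LPS missed the threshold (edgeR adjusted p = 0.424 and 0.311). With 50 to 164 reads per library, the gene was counted less deeply than most other members, and the intervals are accordingly wide. Ly96 lies on chromosome 1, 16688051 to 16709611 of GRCm38.

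Next, the responses to LPS were set side by side. In WT, 9 of the 10 genes were called (60.3% of all 12541 genes tested), 5 higher with LPS (29.5% of all genes) and 4 lower (30.8%). In 3xGrk-/- cells 7 of the 10 were called (55.4%), 5 higher (28%) and 2 lower (27.4%). Ly96, Ticam1, Irak3 and Traf6 rose and Irak4 and Irak1 fell in both genotypes. A change of at least 1 on the log2 scale was reached by Ly96 in WT (21.5% of all genes) and by Ly96 and Irak3 in 3xGrk-/- cells (18.9%). The stimulated and unstimulated libraries did not overlap for any of the 10 genes, in WT (78.2% of all genes) or in 3xGrk-/- cells (77.6%). The median response of the 10 genes was 0.16 in WT and 0.26 in 3xGrk-/- cells, beside −0.01 over all genes in both. The median size regardless of direction was 0.49 against 0.45 over all genes in WT, and 0.39 against 0.39 in 3xGrk-/- cells. Both responses and the interaction come from the same 8 libraries. For 5 of the 10 genes the response differed between the genotypes by the interaction test (32.5% of all genes), with the response of 3xGrk-/- cells above that of WT for Myd88, Ticam2, Irak2 and Irak3 (16.5% of all genes) and below it for Traf6 (16%). None of the interactions reached 1 on the log2 scale (11% of all genes). Their median was 0.17, against 0.01 over all genes. The summed level of all 10 genes was 583 and 569 CPM in unstimulated WT, 628 and 644 in unstimulated 3xGrk-/-, 677 and 651 in LPS-stimulated WT, and 769 and 748 CPM in LPS-stimulated 3xGrk-/- libraries.

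**Figure D4:**
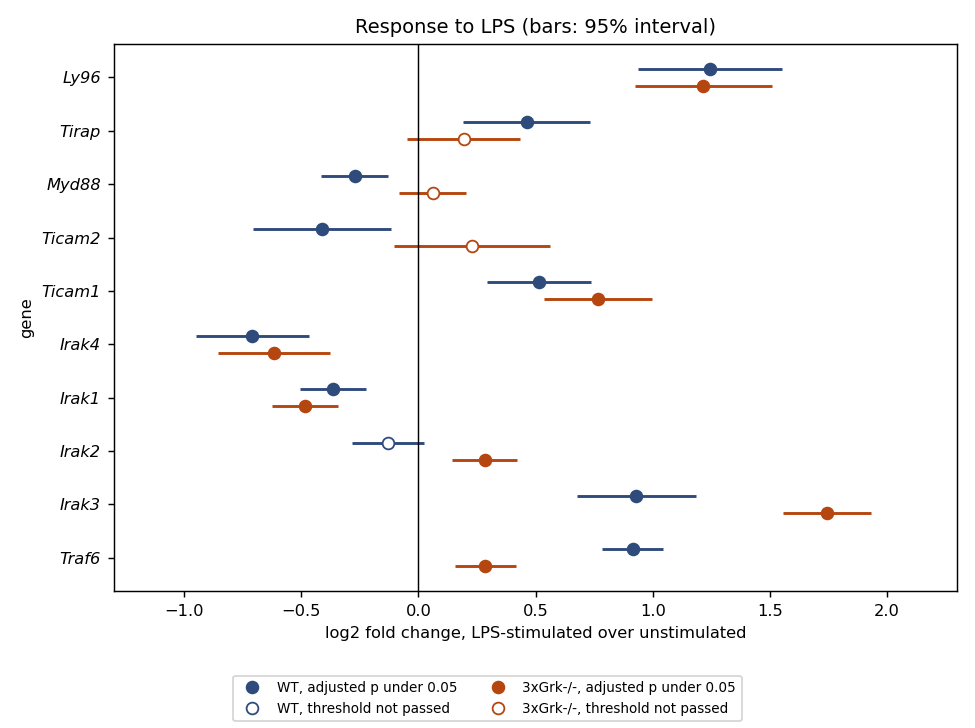
Response to LPS of each of the 10 genes, as log2 fold change of LPS-stimulated over unstimulated cells, for WT and 3xGrk-/-; points are estimates from edgeR, bars 95% intervals, and filled points passed an adjusted p of 0.05. Ly96 responds by 1.24 and 1.22, whereas the points of Irak3 (0.93 and 1.74) and Traf6 (0.91 and 0.29) lie apart.

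Finally, other genes of the pathway were counted by list, upstream and downstream of the 10 genes. The counts stand beside the shares over all genes given above, which for the genotype were 22.1% higher and 22.7% lower without LPS, and 24.7% higher and 24% lower with LPS. At the receptor, Tlr4 had 39.9 and 47.5 CPM in unstimulated WT, 100.2 and 102.1 in unstimulated 3xGrk-/-, 79.8 and 62.7 in LPS-stimulated WT, and 138 and 152 in LPS-stimulated 3xGrk-/- libraries. It was higher in 3xGrk-/- cells by 1.19 without LPS (SE 0.0783, edgeR adjusted p = 1.26e-50) and by 1.03 with LPS (SE 0.0962, edgeR adjusted p = 1.22e-08), with an interaction of −0.16 that was not called (95% interval −0.44 to 0.11). Cd14, which delivers LPS to TLR4 and is also among the macrophage markers, was higher by 1.25 without and by 2.51 with LPS, with an interaction of 1.26 (SE 0.115, edgeR adjusted p = 7.72e-10). With Lbp, Cd180 and Ly86, the receptor list had 3 genes called higher and 1 lower of 4 tested without LPS, and 3 higher and none lower of 5 with LPS, where Cd180, a TLR4 homolog, was higher by 3.35. The gene lower without LPS was Ly86 (−0.64), the partner of Cd180. Lists of so few genes are described by these counts and were not tested as lists.

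Of the TAK1 and IKK genes that act after TRAF6, 2 of 9 tested were called higher and none lower without LPS (22.1% and 22.7% of all genes), and 1 of 10 higher and 4 lower with LPS (24.7% and 24%). Ikbkg, the scaffold of the IKK complex, was the one higher with LPS (0.50), and Map3k8, a kinase upstream of ERK, was the lowest (−0.60). LPS raised 6 and lowered none of these 10 genes in WT (29.5% and 30.8% of all genes), and raised 5 and lowered 2 in 3xGrk-/- cells (28% and 27.4%). By the interaction, the response of 3xGrk-/- cells was below that of WT for 6 of the 10 (16% of all genes) and above it for none (16.5%), among the 6 Tab1 (−0.56) and Map3k8 (−0.44), and the median over the list was −0.28. Of 12 genes of the TRIF branch, 6 were called higher and 1 lower without LPS (22.1% and 22.7% of all genes), and 7 higher and 1 lower with LPS (24.7% and 24%). Ripk3, a kinase of necroptosis, was the highest without LPS (1.26). Tbkbp1, an adaptor of TBK1, was the gene called lower without LPS (−0.50) and the highest with LPS (1.64), with an interaction of 2.14 (SE 0.273, edgeR adjusted p = 3.56e-07). Of the 12 genes, the interaction was called above 0 for 2 and below 0 for 1 (16.5% and 16% of all genes). Tank, another adaptor of TBK1, was the gene called lower with LPS (−0.27). Irf7, a factor that drives type I interferon, rose with LPS by 6.16 in WT and by 6.69 in 3xGrk-/- cells. It was called higher in 3xGrk-/- cells without (0.89) and with LPS (1.42), with an interaction of 0.53 (SE 0.145, edgeR adjusted p = 0.0137).

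Of 11 tested negative regulators of TLR signaling other than Irak3, 4 were called higher and 3 lower without LPS (22.1% and 22.7% of all genes), and 4 higher and 5 lower with LPS (24.7% and 24%). Called genes in both directions were thus found in the list, as over all genes. Pik3ap1, an adaptor that limits TLR signaling through PI3K, was higher by 1.16 and 1.12, and Il1rl1, the receptor of IL-33, had −1.62 and −2.15. By the interaction, 2 were called above and 4 below 0 (16.5% and 16% of all genes), from Tollip (0.55) to Sigirr (−0.54). Of the Pellino and TRAF ubiquitin ligases, 3 were called higher and 2 lower of 7 without LPS (44.7% of all genes in either direction), and 2 and 2 of 6 with LPS (48.6%). Peli3 differed most without LPS, with 0.191 and 0.420 CPM in WT and 4.79 and 3.65 CPM in 3xGrk-/- libraries. So few WT reads give no reliable fold, and Peli3 was not tested between the genotypes with LPS. Traf4 was the lowest of these genes in both conditions (−0.83 and −1.20), and Traf2 the highest with LPS (0.50). Peli1, which ubiquitinates IRAKs, had −0.94 with LPS, and its interaction was −0.59 (SE 0.128, edgeR adjusted p = 0.000532). Of 13 tested genes of other receptors that signal through MyD88, 7 were called higher and 5 lower without LPS (22.1% and 22.7% of all genes; median 0.84), and 8 higher and 2 lower with LPS (24.7% and 24%; median 1.32). By the interaction 10 of these 13 were called (32.5% of all genes), with the response of 3xGrk-/- cells above that of WT for all 10 (16.5%). Tlr8, a sensor of RNA in endosomes, was the highest of them, by 3.12 and 4.79. The lowest was Tlr11 without LPS (−2.26) and Tlr12 with LPS (−0.88), both sensors of profilin. The list medians ranged from −0.22 to 1.32 with LPS, beside 0.12 for the 10 adaptor and kinase genes. Several of these receptors are expressed by macrophages. Without LPS the macrophage markers, like these receptors, were called in both directions (5 higher and 4 lower), and with LPS all 10 were higher. Their part in these counts was not tested.

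**Figure D5:**
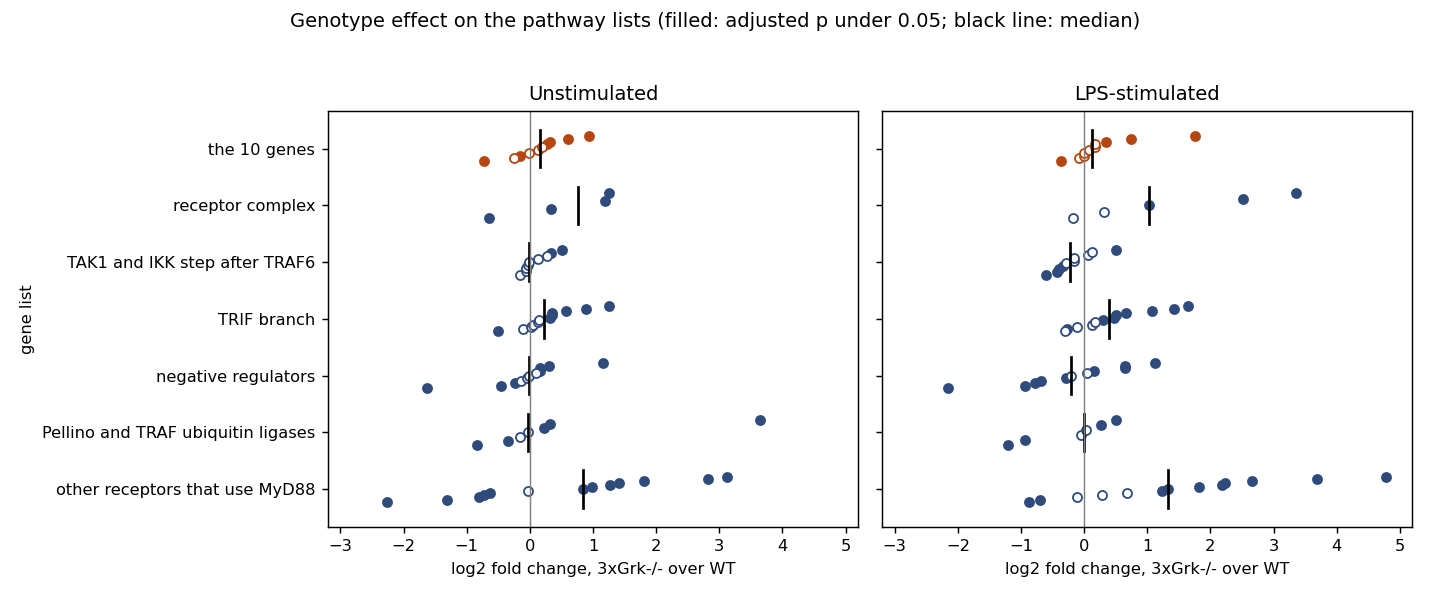
Log2 fold change of 3xGrk-/- over WT for the 10 members (orange) and the genes of the 6 pathway lists (blue), without LPS on the left and with LPS on the right; points are genes, filled where the adjusted p was under 0.05, and black lines are medians. Other receptors that use MyD88 reach 4.79 with LPS (Tlr8), whereas the 10 members lie between −0.72 and 1.75.

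The genes whose pattern over the 8 libraries was most like that of each member were looked up among 9149 genes with a mean log2 CPM of at least 3, by the root mean square difference of centred log2 CPM. The closest genes differed from Irak2 by 0.0386 (Apobr), from Myd88 by 0.04995 (Plekho1), from Ly96 by 0.0511 (Usp25), from Irak1 by 0.0526 (Mapk3) and from Traf6 by 0.0543 (Avl9). For Tirap they were 0.0656 away (Pogk), for Ticam1 0.0659 (Nfkbie), for Ticam2 0.0714 (N4bp2) and for Irak4 0.0904 (Nol12). Irak3 had the most distant neighbours, Osbpl3 at 0.157, Il7r at 0.172 and Slc31a2 at 0.189, and it was also the member that varied most, with an SD of 1.03 over the 8 libraries. The distances were not scaled by this variation, which was smallest for Myd88 (SD 0.110), so they do not rank how closely a pattern is matched. With 8 libraries in 4 groups, such likeness mostly repeats the order of the group means.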

How the data were processed

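Poly(A) RNA of BMDCs was sequenced with a stranded kit. Per the study's methods, the authors aligned reads to mm10 within snakePipes using STAR and counted them on genes with featureCounts; the submitters' processing notes name GRCm38 and featureCounts. The values the authors deposited are raw counts per gene, without normalization, in 1 table per stimulation with 1 column for each of the 8 libraries (4713305 to 6933358 reads on genes), and 0 columns were left without a sample. The annotation release and the strand setting are not given in the sources used here. Groups come from the sample labels, and the LPS dose and time from the study's methods.

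Of the 47937 gene IDs, 47224 matched a symbol of GENCODE M21, and IDs without one held 0.0847% of the counts. Exon lengths, overlaps and coordinates are those of M21. Genotypes were compared within each table with edgeR 4.0.16 in R 4.3.3 (TMM, filterByExpr, glmQLFit and glmQLFTest, Benjamini-Hochberg adjustment over all genes tested, threshold 0.05). LPS responses and the interaction came from a single fit of all 8 libraries. CPM and RPKM were scaled by TMM factors of all 8 libraries. The SE of a difference is its size over the root of edgeR's F value. The steps were tested on simulated data. Alternatives were DESeq2 1.42.0, other scalings and filters, a fixed spread, a replicate block, other sets of libraries per fit, and leaving out each library. The fixed spread was used with edgeR's likelihood ratio test.

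The 10 members and all lists were chosen with earlier results of these data known. Besides the members, Tlr4 and Cd14, the rule allowed the naming of those genes of a list that had the widest called difference of their direction in a comparison, and for each member the genes most like it. Genes that share exon bases with a member were named as such, and some cell type markers were named too. Sequences are from RefSeq.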

Additional observations from a re-analysis of the deposited data

Results flagged for a closer look

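The difference between the genotypes itself differed with LPS for 5 of the 10 genes by the interaction test (edgeR, Benjamini-Hochberg adjusted p over the whole table), where 32.5% of all genes were called. The difference with LPS minus the difference without LPS was 0.33 for Myd88, 0.64 for Ticam2, 0.41 for Irak2, 0.81 for Irak3 and −0.63 for Traf6, all on the log2 scale. DESeq2 called 3 of these, Irak2, Irak3 and Traf6. Of 15 alternatives each, the call was lost in 7 for Ticam2 (DESeq2, the fixed spread and 5 of the fits without 1 library) and in 3 for Myd88 (DESeq2, the fixed spread and 1 fit without 1 library). Irak2 and Irak3 were higher in both libraries of 3xGrk-/- cells in either condition and by more with LPS. Traf6 was higher in both 3xGrk-/- libraries without LPS and lower in both with LPS. For Ticam2 the gap between the genotypes was present without LPS and within the spread of the libraries with LPS, and for Myd88 the order of the genotypes turned. The monocyte and macrophage markers had 10 of 10 interactions called above 0, and their part in these results was not tested. No group had enough libraries to look for single libraries that stand apart.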

How the results depend on the processing

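Over all alternatives, 622 values of the 10 genes kept their direction and side of the threshold, 58 lost the call, 6 gained it and 24 changed sign. The genotype and interaction calls of Irak2, Irak3 and Traf6 were lost only with the spread set to a biological coefficient of variation of 0.4, which left 448 (without LPS) and 782 (with LPS) genes for the genotype, 1110 (WT) and 850 (3xGrk-/-) for the response to LPS and 72 for the interaction, with 0 of the 10 members in each of the 5 comparisons. There, the number of members with an unadjusted p under 0.05 was 0, 1, 1, 2 and 0, beside 8.78%, 12.6%, 17%, 14.6% and 4.47% of all genes. DESeq2 called 2831 genes for the genotype without and 3663 with LPS and 2450 for the interaction (3 members), against 5369, 5754 and 4070 in edgeR. Without 1 library, these counts were 4253 to 4788, 4460 to 5712 and 3328 to 4199, and those of the LPS response 6417 to 7601 in WT and 5844 to 7410 in 3xGrk-/- cells. The members called were then 5 to 7, 3 to 5 and 4 to 5, and 8 to 9 and 7.

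All values that changed sign were small and not called. For Ticam1 with LPS these were 0.0141 (DESeq2), 0.0025 (RLE), 0.0208 (no filter), 0.0033 (at least 10 counts) and 0.0011 (fixed spread). Library totals alone, which moved the median of all genes by −0.09 for the genotype with LPS and by −0.22 for the LPS response of 3xGrk-/- cells, gave −0.0139 for Irak4 and −0.0857 for Irak1 with LPS, and LPS responses in 3xGrk-/- cells of −0.0257 for Tirap and −0.1574 for Myd88. Irak4 without LPS was 0.0021 with no filter, and the interaction of Ly96 was 0.0103 with at least 10 counts. Without 1 library, values ranged from −0.0861 to 0.0601 for Irak4 without LPS, −0.1001 to 0.2615 for Irak4, −0.0296 to 0.0510 for Irak1, −0.0659 to 0.0856 for Ticam1 and −0.1704 to 0.0083 for Ticam2 with LPS, and −0.0905 to 0.0251 (Ly96) and −0.0924 to 0.2661 (Irak4) for the interaction.

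The labels number the libraries 1 and 2 in every group. The correlation of the deviations of same-numbered libraries from their group means ranged from −0.13 to 0.20, so the numbers were not taken as pairs. With a replicate block, 5292, 5654 and 3884 genes were called for the genotype without LPS, with LPS and the interaction, and 7438 and 6793 for the LPS responses, with 6, 4, 5, 9 and 7 of the members, and it changed no count of members. The causes were not tested. Ly96, Ticam2 and Tirap rest on the fewest reads, 50 to 164, 64 to 136 and 91 to 180 per library, which limits their precision.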
